A study of Mus musculus with 6 samples.

Results

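The miRNAs mir-224 and mir-452 are 2 of the 1006 precursor entries in the small RNA table of this study, and they lie in the same intron of the mouse gene Gabre. The table held 1 entry of each name. The pair was chosen by name and position and with values of these libraries in view. The study had selected mir-224 on its level in vesicles from sheared cells and on its increase over vesicles from control cells. The difference between these vesicle groups is therefore given below as a description, without a test.

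Small RNA was sequenced from 6 libraries of 4 conditions. Myo-EVs (2 libraries) are extracellular vesicles collected by ultracentrifugation from the medium of C2C12 cells, a mouse myoblast line. FFSS-Myo-EVs (2 libraries) are vesicles from C2C12 cells kept on an orbital shaker, which exposes them to fluid flow shear stress (FFSS). Both kinds were collected in medium with vesicle-depleted serum over 48 hr. The C2C12 cells themselves have no library in this series. Cells are represented by 1 library from primary osteoblasts (OB) and 1 from bone marrow cells (BM) of mice. Both carry the stress label control and come from mice aged 8 to 10 weeks with a background of 81.25% C57BL/6J and 18.75% 129/SvJ, and the vesicle libraries carry the same strain label. For osteoblasts, the study's methods describe calvariae pooled from several newborn male mice instead. For bone marrow, they describe a single male mouse. The growth protocol in the labels mentions vitamin D and dexamethasone and not the shaker, so the FFSS group rests on the titles and the stress label. No source states that libraries with different replicate numbers came from separate cultures, so the spread between replicates may be technical.

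miRNAs are made from hairpins cut out of a longer primary transcript. Each hairpin can give a mature miRNA from its 5' arm (5p) and one from its 3' arm (3p), and bases 2 to 8 of the mature miRNA, the seed, pair with target mRNAs. Neighbouring hairpins on the same strand can be cut from the same transcript, and a hairpin in an intron can be made from the transcript of its host gene. Gabre encodes the epsilon subunit of the GABA-A receptor. miR-224 is known for its induction by TGF-β in mouse ovarian granulosa cells, where it lowers Smad4, and for its high levels in liver cancer. miR-452 has been studied in the neural crest of mouse embryos.

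The hairpin of mir-452 lies at chrX:72262224-72262308 and that of mir-224 at chrX:72261031-72261112, both on the minus strand of GRCm38.p6. In the GENCODE M21 annotation both lie in intron 6 of the 9-exon transcript Gabre-201, which is 3878 bases long, and neither overlaps an exon of any annotated Gabre transcript. In the direction of transcription mir-452 comes first, 136 bases after exon 6, and mir-224 follows after a further 1111 bases. The shorter noncoding transcript Gabre-202 ends 255 bases before the mir-224 hairpin. It thus spans mir-452 in an intron and does not reach mir-224.

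**Figure D1:**
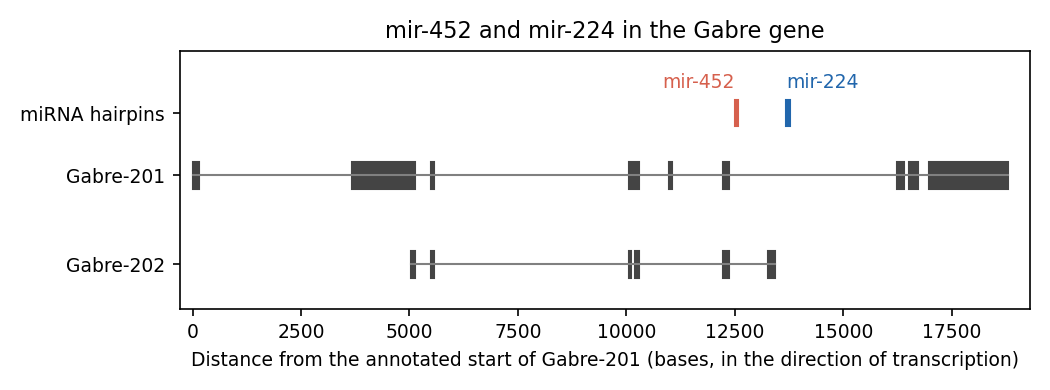
Map of Gabre in the direction of transcription, in bases from the annotated start of transcript Gabre-201. Boxes are exons, lines are introns, and coloured boxes are the mir-452 and mir-224 hairpins. Both hairpins lie in intron 6 of Gabre-201, and mir-224 lies beyond the end of Gabre-202.

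The hairpins, from RefSeq on GRCm38.p6, are shown because the table counts reads per hairpin and not per arm. Capitals mark the 2 mature miRNAs of each, 5p first.

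mir-224 hairpin: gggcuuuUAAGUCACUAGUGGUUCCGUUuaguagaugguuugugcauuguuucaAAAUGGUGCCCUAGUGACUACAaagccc

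mir-452 hairpin: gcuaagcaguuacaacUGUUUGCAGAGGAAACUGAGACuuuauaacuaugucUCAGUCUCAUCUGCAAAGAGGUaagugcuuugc

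The mature miRNAs, with the seed in capitals, show that the members of the pair do not share a seed although they share a host gene.

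miR-224-5p: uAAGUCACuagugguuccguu

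miR-224-3p: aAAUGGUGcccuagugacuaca

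miR-452-5p: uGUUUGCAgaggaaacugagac

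miR-452-3p: uCAGUCUCaucugcaaagaggu

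Among the 1738 mature mouse miRNAs of the RefSeq table, 0 others carried any of these 4 seeds. No other of the 1005 hairpins shared an 18-base stretch with either member. In the GENCODE transcripts, 0 genes other than the miRNA itself held an 18-base stretch of the mir-224 hairpin. For mir-452 there was 1 such gene, Tac1, which encodes the precursor of substance P. The shared stretch is 19 bases long, and 15 of them belong to miR-452-5p. Which arm the reads of each entry came from cannot be read from the table.

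The total count over all entries ranged from 2414132 to 3029524 in the 4 vesicle libraries and was 5181296 in OB and 6092460 in BM. Levels are given as the authors' normalized expression value, which is the read count multiplied by a constant for each library. A 95% interval of a single library was taken from its share of counts by the exact Clopper-Pearson method. It covers counting error only. It may be too narrow even for that, because reads amplified by PCR without molecular identifiers are not independent molecules. The replicate libraries differed by more than sampling noise, with a chi-square per degree of freedom of 93.3 for Myo-EVs and 15.9 for FFSS-Myo-EVs. The vesicle libraries held mir-206, a miRNA of muscle cells, at 1968.5 to 2610.0. The other 5 entries of the muscle list lay between 0 and 45.2 there, with mir-1a-1 at 0 in all 4. The summed level of 5 entries of mesenchymal cells was 469573.8 in OB, 20790.9 in BM and 326803.2 to 428559.9 in vesicles. Most of this sum was mir-143, and the entries differed. In vesicles, mir-199a-1 (11324.2 to 16349.7 against 87356.0 in OB), mir-199a-2 and mir-214 were lower than in OB. There mir-143 and mir-145a (21558.8 to 25112.8 against 16583.5 in OB) were higher. The summed level of 5 entries of blood cells was 20347.7 in BM and 175.7 in OB. Myo-EVs had 15.0 and 10.8 of it and FFSS-Myo-EVs 50.9 and 43.2. That of 6 muscle entries, mostly mir-206, was 2052.9 and 2446.9 for Myo-EVs against 2641.9 and 2625.9 for FFSS-Myo-EVs. The sums of both lists were thus also higher with FFSS, but within each list the members differed. Apart from mir-206 the muscle entries were not higher, and mir-133b, for example, was at 45.2 and 35.9 without FFSS and at 13.9 and 12.2 with it. Of the blood entries, mir-451a was at 3.0 and 4.8 without FFSS and at 25.9 and 17.7 with it. The entries mir-223 and mir-142a were also higher, at 8.9 at most. The vesicle groups overlapped in mir-150 (3.0 and 4.8 against 7.0 and 3.3) and mir-144 (4.0 and 0.0 against 4.0 and 7.8). The part of these lists in the results below was not tested.

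Both miRNAs were lowest in bone marrow cells, higher in osteoblasts, higher again in Myo-EVs and highest in FFSS-Myo-EVs. The normalized expression value of mir-224 was 89.0 in BM, from 224 counts (95% interval 77.7 to 101.4). OB had 663.8, from 1202 counts (626.8 to 702.4). Myo-EVs had 2658.1 and 2383.4, from 2648 and 1990 counts. FFSS-Myo-EVs had 4332.5 and 4063.5, from 4349 and 3669 counts. The vesicle groups overlapped neither each other nor the cell libraries. OB and BM have 1 library each, so they could not overlap. The shares of all entries separated in these ways are given below, and mir-224 was chosen with the last step known. For mir-224, the rank among all 1006 entries was 196 in BM, 140 in OB, 82 in Myo-EVs and 63 in FFSS-Myo-EVs, by the mean of each condition.

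The entry mir-452 followed the same order at a much lower read count. Its normalized expression value was 4.8 in BM, from 12 counts (2.46 to 8.33). OB had 39.8, from 72 counts (31.1 to 50.1). Myo-EVs had 143.5 (121.0 to 169.1) and 207.2 (177.5 to 240.5), and FFSS-Myo-EVs had 279.9 (248.2 to 314.6) and 252.5 (220.8 to 287.5). Here too the vesicle groups overlapped neither each other nor the cell libraries. The gap between the vesicle groups, 45.3, was smaller than the 63.7 by which the Myo-EV libraries differed from each other. For mir-452 the counting intervals of the second library of each vesicle group also overlapped. For mir-224 the gap between the vesicle groups was 1405.4, against a difference of 274.7 within Myo-EVs and 269.0 within FFSS-Myo-EVs. By the mean of each condition, mir-452 ranked 410 in BM, 279 in OB, 178 in Myo-EVs and 156 in FFSS-Myo-EVs.

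**Figure D2:**
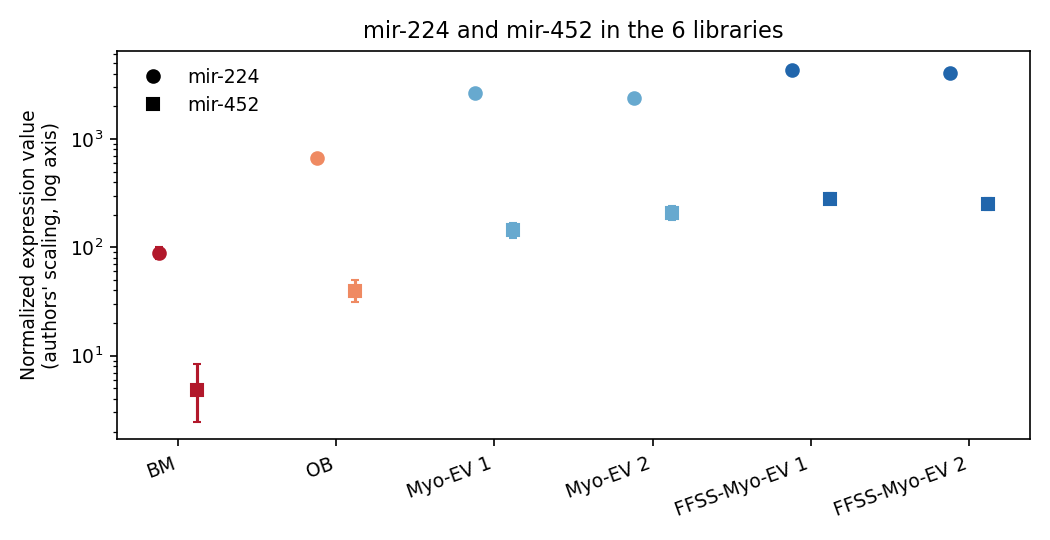
Normalized expression value (authors' scaling, log axis) of mir-224 (circles) and mir-452 (squares) in each library, with the condition as colour and 95% counting intervals as bars. Both run in the same order, from BM (89.0 and 4.8) over OB (663.8 and 39.8) to the vesicles. The steps between conditions are of similar size. From the first to the second Myo-EV library, however, mir-224 fell from 2658.1 to 2383.4 and mir-452 rose from 143.5 to 207.2.

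The first comparison set the vesicle levels of the pair against those in bone cells, since the study looked for miRNAs that vesicles could carry from muscle to bone. OB and BM have 1 library each, so no test was made, and fewer cells of a type that holds a miRNA cannot be told apart from less of it per cell. For mir-224, Myo-EVs were 3.80 times OB (95% counting interval 3.58 to 4.07) and 28.3 times BM (24.9 to 32.7). FFSS-Myo-EVs were 6.32 times OB (5.96 to 6.74) and 47.2 times BM (41.4 to 54.2). The level in OB was 7.46 times that in BM (6.46 to 8.64).

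The ratios of mir-452 were close to these and less precise. Myo-EVs were 4.41 times OB (3.35 to 5.69) and 36.8 times BM (20.4 to 70.8). FFSS-Myo-EVs were 6.70 times OB (5.24 to 8.72) and 55.9 times BM (31.8 to 109.1). OB was 8.34 times BM (4.49 to 16.9). At each of these 5 steps the interval of mir-452 contained the ratio of mir-224. In all 4 vesicle libraries both members were above OB and BM, which was so for 33.8% of the 444 entries with a mean of at least 10 over the 4 conditions. Over those 444 entries the median ratio of FFSS-Myo-EVs was 0.973 to OB and 0.834 to BM. Ordered by the ratio to BM, mir-452 was number 29 and mir-224 number 34. Ordered by the ratio to OB, they were numbers 82 and 84.

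The second comparison concerned FFSS. For mir-224, the mean was 2520.8 ± 194.2 (SD, n = 2) in Myo-EVs and 4198.0 ± 190.2 (SD, n = 2) in FFSS-Myo-EVs, a ratio of 1.67. Taken library by library, the 4 possible ratios ran from 1.53 to 1.82. For mir-452, the mean was 175.4 ± 45.0 (SD, n = 2) in Myo-EVs and 266.2 ± 19.4 (SD, n = 2) in FFSS-Myo-EVs, a ratio of 1.52. Its 4 library ratios ran from 1.22 to 1.95, so the higher value held in each of them but its size was loosely set.

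In the edgeR fit of the vesicle counts over 354 entries with TMM normalization, the log2 fold change was 0.61 (standard error 0.13) for mir-224 and 0.49 (standard error 0.20) for mir-452. These standard errors were derived from each fold change and its quasi-likelihood test. They rest on a spread estimated over all entries together, with no separate spread for each entry. The change of mir-452 minus that of mir-224 was -0.11, smaller in size than either standard error. From the highest change downwards, mir-224 was number 48 and mir-452 number 62 of the 354. On the authors' scaling, the lower FFSS-Myo-EV library exceeded the higher Myo-EV library in 2 of 2 members and in 36.7% of the 354 entries (130, with 84 separated the other way). On TMM-scaled values this held for 2 of 2 members and 26.0% of the entries (92, with 115 the other way), so the balance over all entries turned with the scaling. Since mir-224 was chosen by this contrast, nothing is read from these counts. Both members were separated in this way also with library totals, as were 111 of the 354 entries, and with median-of-ratios scaling, as were 96. From these too nothing is read. On TMM-scaled values mir-452 reached 207.7 at most for Myo-EVs and 233.4 at least for FFSS-Myo-EVs. Its log2 fold change depended on which Myo-EV library was kept. It was 0.30 without the first and 0.81 without the second. For mir-224 the corresponding values were 0.75 and 0.58.

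**Figure D3:**
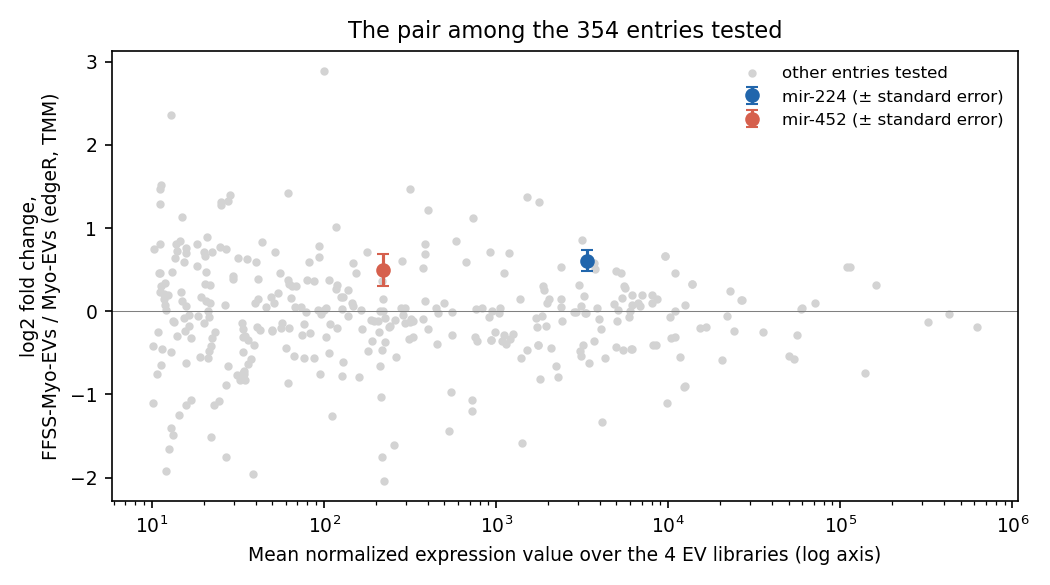
Log2 fold change of FFSS-Myo-EVs over Myo-EVs (edgeR, TMM) against the mean normalized expression value over the 4 vesicle libraries (log axis). Each grey point is an entry, and the coloured points with standard errors are mir-224 (0.61) and mir-452 (0.49), which lie above 0 within the range of the other entries.

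The share of mir-452 in the counts of the pair does not depend on how libraries are scaled. The counts are per hairpin, of 82 bases for mir-224 and 85 for mir-452, and because different miRNAs ligate to the adaptors unequally, the share is read across libraries and not as a molar ratio. It was 5.08% in BM (95% exact binomial interval 2.65 to 8.71) and 5.65% in OB (4.45 to 7.06). Myo-EVs had 5.12% (4.34 to 6.01) and 8.00% (6.89 to 9.22), and FFSS-Myo-EVs had 6.07% (5.40 to 6.80) and 5.85% (5.13 to 6.63). The second Myo-EV library stood highest, and its interval did not overlap those of the first Myo-EV library or of either FFSS-Myo-EV library. The means were 6.56% ± 2.03 (SD, n = 2) in Myo-EVs and 5.96% ± 0.154 (SD, n = 2) in FFSS-Myo-EVs, so the vesicle groups differed by less than the spread between the Myo-EV libraries. Per 1000000 counts of a library, the pair together made up 38.7 in BM and 245.9 in OB. Myo-EVs had 972.0 and 896.0, and FFSS-Myo-EVs had 1528 and 1467.

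**Figure D4:**
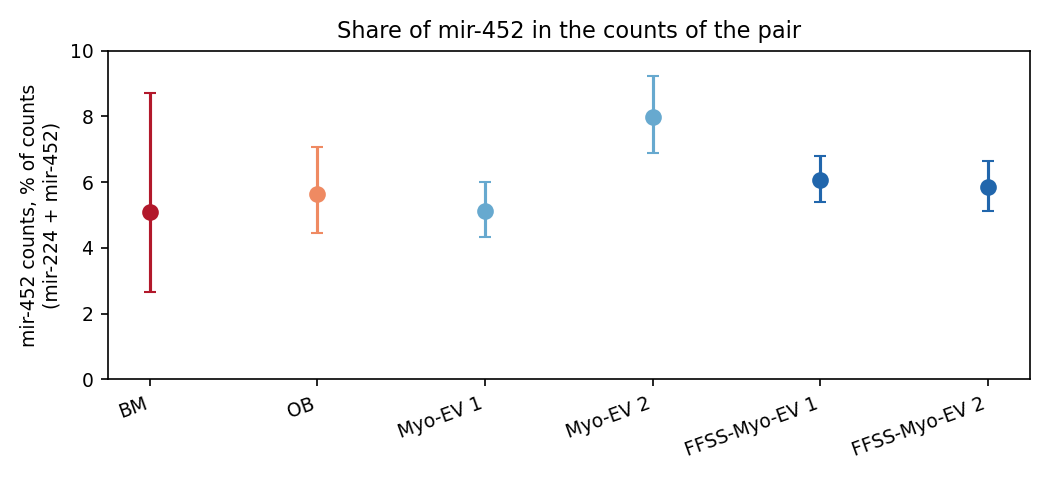
Share of mir-452 in the summed counts of mir-224 and mir-452 in each library (%), with 95% exact binomial intervals. Of the 6 libraries, 5 lie between 5.08% and 6.07%, and the second Myo-EV library lies at 8.00%.

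The ratio of mir-452 to mir-224 thus varied 1.62-fold over the 6 libraries, while the normalized expression value of mir-224 varied 48.7-fold. The same was computed for 13 other pairs of neighbouring miRNAs made from a common transcript, of which 12 had counts of both miRNAs in every library. In those 12 the range of the ratio ran from 1.12-fold to 322-fold with a median of 2.67-fold, and 3 of them varied less than mir-224 and mir-452. These were mir-23b/mir-27b (1.12-fold), mir-221/mir-222 (1.52-fold) and mir-143/mir-145a (1.60-fold). In mir-188/mir-532 the range was 322-fold with a lowest count of 1. In mir-99b/mir-125a, a pair with at least 1448 counts in each library, it was 5.22-fold. The libraries are the same for all pairs and 2 of the conditions have no replicate, so these ranges are a description and were not tested.

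Between the OB and BM libraries and the vesicles, the ratio within the pair also differed little. OB and BM are not the C2C12 cells that released the vesicles. A difference between cell types therefore cannot be told apart from one between cell and vesicle. The mean log2 ratio of mir-452 to mir-224 was 0.22 higher in the 4 vesicle libraries than in the 2 cell libraries, and 2 of the 12 other pairs had a smaller difference in either direction. The OB library lay inside the range of the vesicle libraries and the BM library just below it, at -4.22 on the log2 scale against -4.21 in the first Myo-EV library. In 11 of the 12 other pairs both cell libraries lay outside the range of the vesicle libraries. Within the vesicles the pair was less uniform than most. Its log2 ratio ranged over 0.69, with the second Myo-EV library at the upper end, and 10 of the 12 other pairs had a smaller range, such as 0.08 in mir-23b/mir-27b and 0.16 in mir-182/mir-183.

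**Figure D5:**
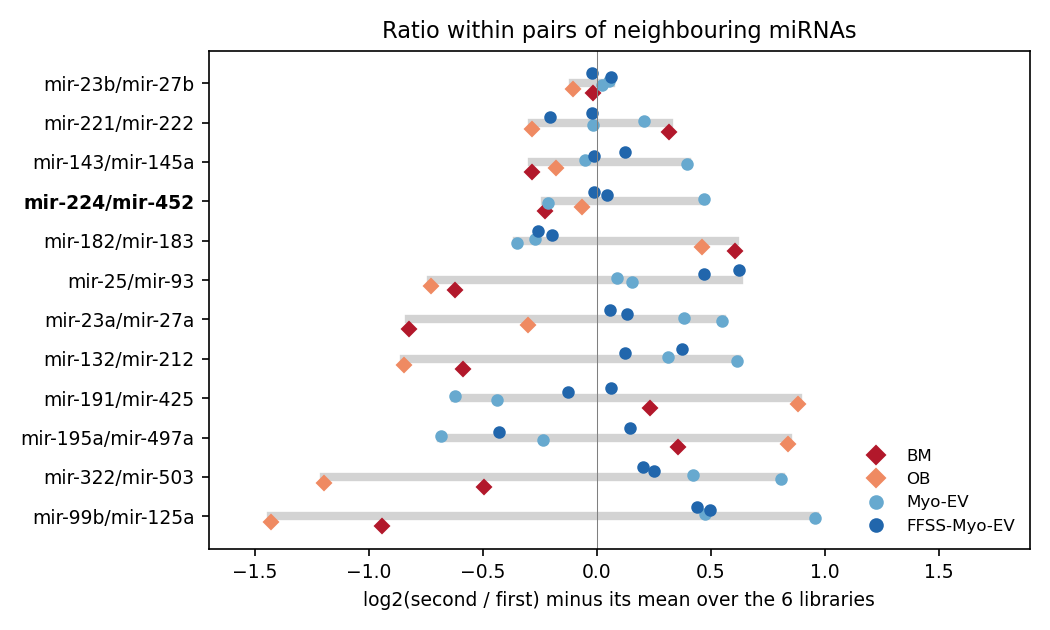
Log2 ratio of the second to the first miRNA of each pair, minus its mean over the 6 libraries, for mir-224/mir-452 (bold) and 11 other pairs, with cells as diamonds and vesicles as circles. The pair mir-188/mir-532 is left out because of its range of 8.33, and mir-144/mir-451a because of a count of 0. Grey bars span the 6 libraries, and that of mir-224/mir-452 is 0.70 long.

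The entries most like each member were found by the root mean square difference of their log2(value + 1) profiles over the 4 conditions, each centred on its own mean, among the entries with a mean of at least 100. The entry mir-452 passed this filter only through its vesicle values, with 4.8 in BM and 39.8 in OB. Of 252 entries compared, mir-452 was the closest to mir-224, with a difference of 0.0696, and mir-224 was the closest to mir-452. The median over all 252 was 2.52. The following 4 were let-7e, mir-193a, let-7b and let-7k for mir-224, with differences from 0.32 to 0.42. The same 4 followed for mir-452, from 0.29 to 0.37. In let-7e, for example, the mean was 998.1 in BM, 8452 in OB, 37137 in Myo-EVs and 34216 in FFSS-Myo-EVs, without the step up between the vesicle groups. The members were also closest to each other over the 6 single libraries, and over BM, OB and the mean of all vesicle libraries. That mean removes the step between the vesicle groups, but it still includes the FFSS-Myo-EV libraries. With a pseudocount of 10 in place of 1, which is above the BM level of mir-452, mir-452 was number 4 for mir-224 and mir-224 number 6 for mir-452.

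RefSeq places 5 miRNA genes within 1 Mb of the pair, the members included. Mir767 and Mir105 have no entry of these names in the table. The remaining one, mir-2137, had a value of 2.2 in OB, 12.7 in BM, 10.0 and 10.8 in the vesicles without FFSS, and 18.9 and 12.2 in those with it. Unlike the pair, it was thus higher in BM than in OB.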

How the data were processed

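The deposited table holds, for each library, read counts per miRBase precursor entry, which the authors made in CLC Genomics Workbench by collapsing equal reads and assigning them to miRBase entries. It also holds normalized expression values, a signal that the authors derived from the deposited counts by scaling to a common total and then by trimmed means. Within each library these values equal the count times 1 constant. The submitters' processing notes name mm10. The miRBase release, the mismatches allowed and the handling of reads with several matches are not given in the sources used here. Positions and sequences came from RefSeq on GRCm38.p6, in which 997 of the 1006 entries were matched by name, and exons from GENCODE M21.

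Fold changes were fitted with edgeR 4.0.16 (R 4.3.3; TMM, total counts as library sizes, quasi-likelihood) on the 354 entries with a mean normalized value of at least 10 in the vesicle libraries. The fit was also run on simulated counts. These were drawn with 1 common spread for all entries, so that run does not bear on a spread that differs between entries. Ratios to cells were computed from counts times the constant. Their intervals are exact conditional binomial intervals (scipy 1.17.1). DESeq2 1.42.0, limma 3.58.1, other scalings and filters, and left-out libraries were alternatives. Other settings of the likeness and of the number of entries above both cells were chosen after seeing the data. The members, pairs and lists were chosen with earlier results of these data known. The named entries are the members, the listed pairs, the 5 most alike entries, neighbours on X and the markers.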

Additional observations from a re-analysis of the deposited data

How the results depend on the processing

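The log2 fold change of both members stayed above 0 in each of the 9 other settings and in each fit without 1 library. For mir-224 it was 0.56 to 0.74 over the 9 settings and 0.51 to 0.75 without 1 library. The lowest of the 9 came with no filter on low values. It was 0.74 with the authors' scaling, 0.74 with limma and a pseudocount of 1, and 0.73 with limma and a pseudocount of 10. For mir-452 it was 0.44 to 0.62 over the same settings and 0.30 to 0.81 without 1 library. With the replicate block it was 0.61 for mir-224 and 0.50 for mir-452. No source says that the numbers pair the libraries, and the deviations of same-numbered libraries had a correlation of 0.21 across entries.

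Each ratio of vesicles to cells stayed above 1 in all settings. With each library rescaled to a total of 1000000, the ratio to BM was 23.8 (Myo-EVs) and 38.3 (FFSS-Myo-EVs) for mir-224, and 45.3 (FFSS-Myo-EVs) for mir-452. With median-of-ratios scaling, mir-224 was 3.10 (Myo-EVs) and 4.81 (FFSS-Myo-EVs) times OB and 41.9 times BM (FFSS-Myo-EVs), and mir-452 in FFSS-Myo-EVs was 5.10 times OB and 49.6 times BM. Without 1 library, mir-224 in Myo-EVs was 3.59 to 4.00 times OB and 26.8 to 29.9 times BM, and in FFSS-Myo-EVs 6.12 to 6.53 and 45.7 to 48.7 times. For mir-452 these ranges were 3.61 to 5.21 and 30.1 to 43.5, and 6.35 to 7.04 and 53.0 to 58.7. The cause of these differences between scalings was not tested. The number of entries with both FFSS-Myo-EV libraries above both Myo-EV libraries was 130 on the authors' scaling, against 84 below. Other scalings turned this balance or narrowed it, with 92 above and 115 below for TMM, 96 and 109 for median-of-ratios and 111 and 98 for library totals. With no filter there were 242 above and 134 below, and with a mean of at least 100 there were 78 and 58, because other numbers of entries are counted. For entries above both cells the number was 150, and 87 with a mean of at least 100.

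The 12 counts of mir-452 in BM limit its ratios to BM.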

Other observations

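The table holds 76 entries that RefSeq places on chromosome X, of which 51 were in the edgeR fit. Besides the members, 49 were fitted, with a median log2 fold change of -0.10 (FFSS-Myo-EVs over Myo-EVs), against -0.02 over all 354 entries. On the authors' scaling, the vesicle groups did not overlap in 14 of the 49 with FFSS-Myo-EVs higher (28.6%) and in 15 with them lower (30.6%), against 36.7% and 23.7% over all 354 entries. On TMM-scaled values these were 11 (22.4%) and 19 (38.8%), against 26.0% and 32.5%. These entries are not independent of each other. Many lie in 1 stretch of X, from mir-743a to mir-465a, and most of those had a negative log2 fold change. Some are near copies, such as mir-465c-1 (means of 1911 in Myo-EVs and 1571 in FFSS-Myo-EVs) and mir-465c-2 (1916 and 1568). The lowest of the 49 was mir-188, at -1.76 (standard error 0.21), and the highest mir-374b, at 0.84 (standard error 0.14). Other X-linked entries rich in vesicles included mir-741, with means of 6914 in Myo-EVs and 5479 in FFSS-Myo-EVs, and mir-881, with 8928 and 7364. A further one, mir-871, was higher with FFSS, like the pair, with 2572 and 3483. In OB and BM these entries were at 0 or at 0.8 at most, whereas mir-224 was at 663.8 in OB. The entries of this paragraph were picked after their values were seen, and no test was made of the list.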
